A study of Sus scrofa with 7 samples.

Results

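The genes described here are 33 genes of glucose uptake and glycolysis, among 20653 genes in a table of RNA sequencing values from infarcted pig hearts. They were chosen by symbol for their role, with earlier results of these data known. They are glucose carriers, hexokinases and the other enzymes that lead from glucose to pyruvate, the enzymes that set fructose 2,6-bisphosphate, lactate dehydrogenases and lactate carriers. Where a gene has several transcript rows, the one whose mean over the 7 libraries was highest was used. All 33 were found, and all 33 reached the level needed for testing, 10 normalized counts or more in 3 or more libraries, so none was left out.

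The animals were male farm pigs with an infarct caused in the left circumflex artery territory, and anteromidventricular myocardium was sampled 14 weeks later. All of them had the infarct and were given AAV5, an adeno-associated virus used to deliver genes to the heart. The S100a1 group (4 libraries) received AAV5 with human S100A1, which encodes a calcium sensor of cardiac muscle, and the hrLuc group (3 libraries) received AAV5 with luciferase, a light-producing reporter. Each library is titled as a separate pig, and the labels name no batch. The sources used here give neither the age of the animals nor the promoter in the vector. There was no group without infarct or without vector, so the comparison is of one vector cargo with the other in infarcted hearts.

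With 1 row per gene the libraries held 28679324 to 38409552 reads. For the pig S100A1 gene the hrLuc libraries had 7718 ± 1298 normalized counts (SD, n = 3). The S100a1 libraries had 5933 ± 1064 (SD, n = 4), and the log2 difference was -0.39 ± 0.16 (standard error; adjusted p = 0.577, limma). It is not known here whether reads of the delivered human sequence are part of these counts, so the gene cannot serve as a check of the labels. The tissue label was checked with 8 heart muscle cell markers, of which 6 had a row in the table: their summed normalized count was 1663566 to 1910763 in hrLuc and 1761811 to 1973519 in S100a1. All differences below are S100a1 minus hrLuc on the log2(value + 0.5) scale, which understates changes of genes with few reads.

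Glycolysis splits glucose into pyruvate in the cytosol and yields ATP without oxygen, and pyruvate is then either oxidised in mitochondria or reduced to lactate. The healthy adult heart burns mainly fatty acids and also takes up lactate from the blood, while hypertrophied and failing hearts are known for a greater reliance on glucose. Several steps have isozymes: SLC2A4 (GLUT4) moves to the cell surface under insulin whereas SLC2A1 (GLUT1) serves basal uptake, and the LDHB subunit prevails in heart while LDHA prevails in tissues that make lactate.

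No member differed between the groups past the threshold of 0.05 for the adjusted p (limma, Benjamini-Hochberg over 15661 genes). In that comparison 0.0128% of all genes tested passed. The smallest adjusted p among the members was 0.535, for SLC16A1, and 1 of 33 members had an unadjusted p under 0.05, where 8.26% of all genes tested did. Run on reads recovered from the table, edgeR called 0 members (1 at an unadjusted p under 0.05; 0.0128% of all genes called), and DESeq2 called 0 (2 at an unadjusted p under 0.05; 0.568% of all genes called). The share of all genes at an unadjusted p under 0.05 was not computed for edgeR and DESeq2. Their unadjusted counts, here and below, therefore stand without a share to compare. By the authors' deposited table, 0 members had an adjusted p under 0.05, the smallest being 0.128 for SLC16A1, where 0.661% of the genes with a value did. Of the members, 17 had a positive and 16 a negative log2 difference, with a median of 0.012, whereas the median over all genes tested was -0.024 and 43.5% of them were positive. This split rested partly on hrLuc replicate 2, without which 11 members were positive and the median was -0.059. No member was beyond 0.5 in either direction on the log2 scale, where 6.88% of all genes tested were.

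The 95% intervals of the differences show how large a change these 7 libraries leave possible. They are per gene and not adjusted for the number of genes. For 24 of 33 members the interval lay within a 1.5-fold change in either direction, and for 32 of 33 within a 2-fold change, beside 68.4% and 86.2% of all genes tested. The exception beyond 2-fold was ALDOC, aldolase C, with an interval from -0.67 to 1.34. The narrowest were those of PFKFB2 (-0.18 to 0.14) and SLC16A1 (-0.40 to -0.07). A p that misses the threshold does not show that the groups were alike.

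**Figure D1:**
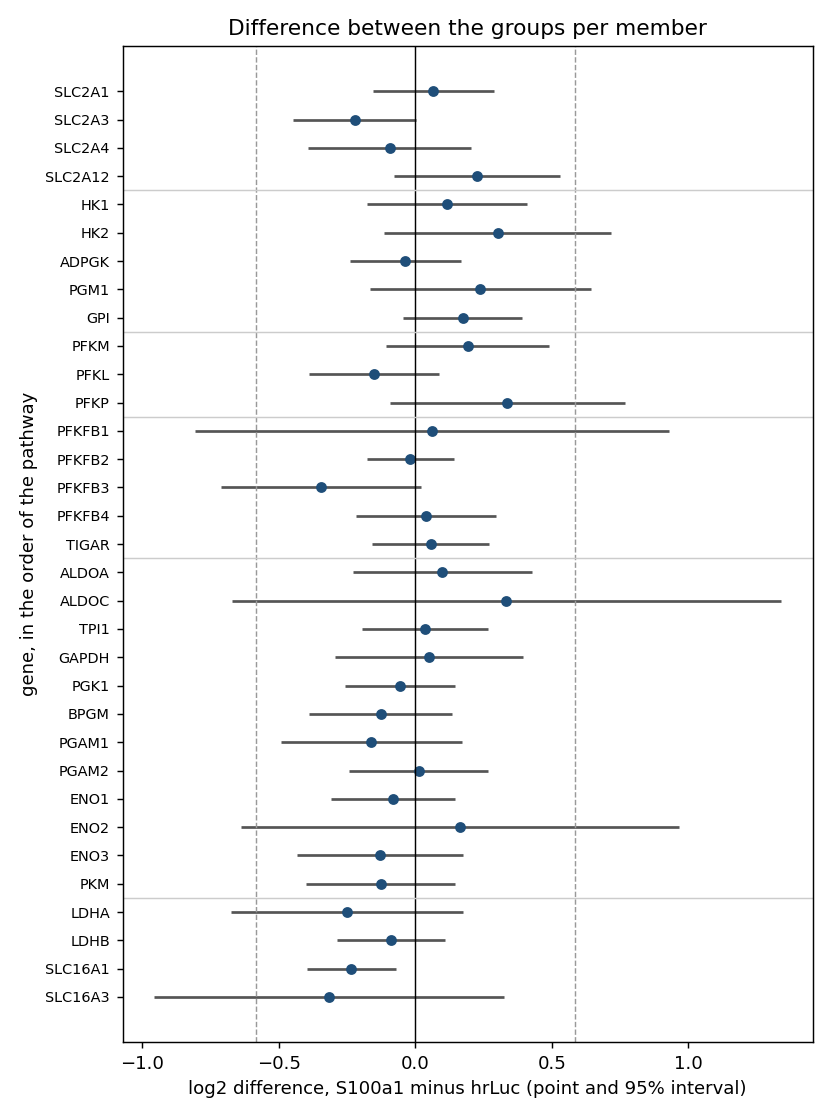
Log2 difference S100a1 minus hrLuc (x axis) for each of the 33 members (y axis, in the order of the pathway), with the limma estimate as a point and its 95% interval as a line. Dashed lines mark a 1.5-fold change in either direction. The points lie between -0.34 and 0.34, and the interval of SLC16A1 is the 1 that leaves out 0.

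The 4 glucose carriers showed no common direction. SLC2A4, the insulin-responsive carrier of muscle and fat, had 5187, 4819 and 6069 normalized counts in hrLuc replicates 1 to 3 and 4015, 4921, 5762 and 5477 in S100a1 replicates 1 to 4. The groups overlapped, with both the lowest and the second highest library in S100a1, and the log2 difference was -0.09 ± 0.13 (adjusted p = 0.853, limma). SLC2A1, the basal carrier, had 1098, 1240 and 1313 in hrLuc and 1143, 1444, 1268 and 1245 in S100a1. Its log2 difference was 0.07 ± 0.10 (adjusted p = 0.862, limma), and its highest library was 1.31 times its lowest. SLC2A3 (GLUT3), a high-affinity carrier best known from neurons and blood cells, had 10562, 10495 and 11696 in hrLuc and 8086, 10730, 9174 and 9612 in S100a1. In SLC2A3 the overlap came from 1 library, S100a1 replicate 2, and the log2 difference was -0.22 ± 0.10 (adjusted p = 0.608, limma). SLC2A12 (GLUT12), another carrier found in heart and skeletal muscle, had 628, 661 and 820 in hrLuc and 992, 750, 824 and 724 in S100a1. Its log2 difference was 0.23 ± 0.13 (adjusted p = 0.651, limma), and over its 4 distinct transcript rows the difference ran from 0.23 to 0.45.

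Of the 5 genes at the entry of glucose into the pathway, 4 had a positive log2 difference and none passed. HK1, the hexokinase that phosphorylates glucose in most tissues, had 9182, 7382 and 10861 normalized counts in hrLuc and 9842, 10161, 10640 and 8629 in S100a1, so the hrLuc group held both the lowest and the highest library. HK2, the insulin-regulated hexokinase of muscle, had 485, 354 and 285 in hrLuc and 378, 456, 535 and 449 in S100a1. Its log2 difference was 0.30 ± 0.18 (adjusted p = 0.656, limma), with hrLuc replicates 2 and 3 below every S100a1 library and hrLuc replicate 1 above 3 of the 4. GPI, which turns glucose 6-phosphate into fructose 6-phosphate, had 9577, 8792 and 10835 in hrLuc and 9983, 11337, 12120 and 10430 in S100a1, a log2 difference of 0.17 ± 0.10 (adjusted p = 0.643, limma). PGM1, which links glucose 6-phosphate to glycogen through glucose 1-phosphate, had 3273 in hrLuc replicate 1 but 5121 and 5142 in the other hrLuc libraries, and 4634 to 6482 in S100a1. The log2 difference of PGM1 was 0.24 ± 0.18 (adjusted p = 0.722, limma), and without hrLuc replicate 1 it was 0.022. ADPGK, a kinase that uses ADP instead of ATP, stayed between 440 and 518 in all 7 libraries, with a log2 difference of -0.04 ± 0.09.

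Phosphofructokinase commits fructose 6-phosphate to glycolysis and is built from muscle (PFKM), liver (PFKL) and platelet (PFKP) type subunits. PFKM had 21247, 19290 and 20441 normalized counts in hrLuc and 26541, 24695, 24587 and 17971 in S100a1. Of the 4 S100a1 libraries 3 lay above every hrLuc library and replicate 4 lay below all of them. The log2 difference of PFKM was 0.19 ± 0.13 (adjusted p = 0.695, limma) and became 0.31 without S100a1 replicate 4 (adjusted p = 0.559, limma). PFKP had 920, 775 and 523 in hrLuc and 973, 992, 970 and 731 in S100a1, with the same 3 libraries above the whole hrLuc group. Its log2 difference was 0.34 ± 0.19 (adjusted p = 0.644, limma), the largest positive difference among the members, and it was 0.11 without hrLuc replicate 3. PFKL had 1763, 1608 and 2109 in hrLuc and 1718, 1780, 1499 and 1552 in S100a1, a log2 difference of -0.15 ± 0.11 (adjusted p = 0.697, limma). PFKM overlaps SENP1, a gene for a SUMO protease, and reads of overlapping genes can be counted for both; SENP1 had a log2 difference of 0.10.

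Fructose 2,6-bisphosphate activates phosphofructokinase. It is made and removed by the 4 bifunctional enzymes PFKFB1 to PFKFB4, and TIGAR, a phosphatase induced by p53, lowers it. PFKFB2, the heart form, was among the steadiest members, with 3004, 2751 and 3155 normalized counts in hrLuc and 2836, 3020, 2805 and 3057 in S100a1 and a log2 difference of -0.02 ± 0.07 (adjusted p = 0.949, limma). PFKFB3, an inducible form with high kinase activity, had 406, 431 and 567 in hrLuc and 416, 389, 380 and 286 in S100a1. The overlap came from S100a1 replicate 1, which exceeded hrLuc replicate 1, and the log2 difference was -0.34 ± 0.16 (adjusted p = 0.609, limma), the most negative among the members. Its 3 distinct transcript rows gave -0.36 to -0.34. PFKFB4 had 694 to 767 in hrLuc and 622 to 866 in S100a1, a log2 difference of 0.04 ± 0.11. TIGAR had 2344 to 2449 in hrLuc and 2156 to 2795 in S100a1, a log2 difference of 0.06 ± 0.09. PFKFB1, the form of liver and skeletal muscle, was near the filter, with 9.06 to 21.8 normalized counts per library and an interval from -0.81 to 0.93, so that smaller changes were not detectable at this depth.

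The 12 genes from aldolase to pyruvate kinase were evenly split, 6 positive and 6 negative, with a median log2 difference of -0.02 and a smallest adjusted p of 0.770 (limma). GAPDH, which oxidises glyceraldehyde 3-phosphate and held 33.3% to 37.4% of the members' reads in a library, had 125129, 109964 and 149330 normalized counts in hrLuc and 141312, 137191, 136541 and 112932 in S100a1. The hrLuc group spanned every S100a1 library of GAPDH, and the log2 difference was 0.05 ± 0.15 (adjusted p = 0.937, limma). GAPDH overlaps IFFO1, a gene for an intermediate filament family protein, which had a log2 difference of 0.08. ALDOA, the muscle aldolase that cleaves fructose 1,6-bisphosphate, had 41353, 34258 and 48006 in hrLuc and 41607, 52032, 44614 and 37892 in S100a1. ENO3, the muscle enolase, had 32065, 26995 and 36272 in hrLuc and 26868, 27752, 34990 and 26460 in S100a1. The log2 differences were 0.10 ± 0.15 for ALDOA and -0.13 ± 0.13 for ENO3. TPI1, which interconverts the triose phosphates, had 7560 to 9273 in hrLuc and 7403 to 9354 in S100a1. PGK1, the first step of the pathway that makes ATP, had 5519 to 6888 in hrLuc and 5605 to 6352 in S100a1. Their log2 differences were 0.04 ± 0.10 and -0.05 ± 0.09, with intervals within a 1.5-fold change.

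The mutases and the remaining enolases also overlapped between the groups. PGAM1, the phosphoglycerate mutase of most tissues, had 6797, 5133 and 6553 normalized counts in hrLuc and 6100, 6376, 5290 and 4349 in S100a1, a log2 difference of -0.16 ± 0.15. PGAM2, the muscle mutase, had 4702, 4595 and 6038 in hrLuc and 4700, 4993, 5837 and 4998 in S100a1, a log2 difference of 0.01 ± 0.11. The 2 distinct transcript rows of PGAM2 gave differences of opposite sign, both within 0.02 of 0. ENO1, the enolase of most tissues, had 2052 to 2689 in hrLuc and 1997 to 2341 in S100a1. ENO2, the neuronal enolase, had 13.1 to 28.9 in all libraries, too few reads to place its difference more closely than -0.64 to 0.97. BPGM, which makes the 2,3-bisphosphoglycerate of red cells, had 422 to 536 in hrLuc and 412 to 504 in S100a1, a log2 difference of -0.13 ± 0.12.

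PKM, pyruvate kinase of muscle and most other tissues, makes pyruvate in the last step. It had 35376, 26287 and 35811 normalized counts in hrLuc and 27448, 30627, 30899 and 28995 in S100a1. hrLuc replicates 1 and 3 stood above every S100a1 library and hrLuc replicate 2 below every S100a1 library, and the log2 difference was -0.13 ± 0.12 (adjusted p = 0.781, limma). PKM has 22 transcript rows with 12 distinct sets of values. Of these sets 10 had log2 differences from -0.14 to -0.13, and the other 2, with about 905 normalized counts on average, were at 0.05. The table does not say which splice form each row stands for, and rows can share reads.

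ALDOC, the aldolase best known from brain, was the most variable member, with 210, 125 and 65.9 normalized counts in hrLuc and 112, 303, 139 and 111 in S100a1. Its highest library was 4.61 times its lowest, and its within-group SD was 0.75 on the log2 scale, beside a median of 0.18 over the members and of 0.16 over all genes tested. The 2 highest libraries for ALDOC, S100a1 replicate 2 and hrLuc replicate 1, were also the highest for the summed normalized count of the 6 macrophage markers, with 7697 and 7224 against 4701 to 5870 in the other 5. All 6 of these markers were detected, and their part in the ALDOC values was not tested. They were picked from several marker lists after the values were seen.

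The variation between libraries of the same group was shared by many members. In hrLuc, replicate 2 was the lowest of the 3 libraries for 23 of 33 members and replicate 3 the highest for 21, whereas 40.0% of all genes tested were lowest in replicate 2 and 36.8% were highest in replicate 3. Of the 12 genes from aldolase to pyruvate kinase, 11 were lowest in hrLuc replicate 2, the exception being ALDOC. In S100a1, replicate 4 was the lowest library for 16 of 33 members, beside 25.1% of all genes tested, and for 8 of those 12. S100a1 replicate 2 was the highest for 15 members, beside 30.8%. The members took 1.03% to 1.31% of the reads in hrLuc, with the lowest share in replicate 2 and the highest in replicate 3, and 1.04% to 1.25% in S100a1, with the lowest in replicate 4. The means were 1.18% ± 0.14 (SD, n = 3) and 1.16% ± 0.10 (SD, n = 4).

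**Figure D2:**
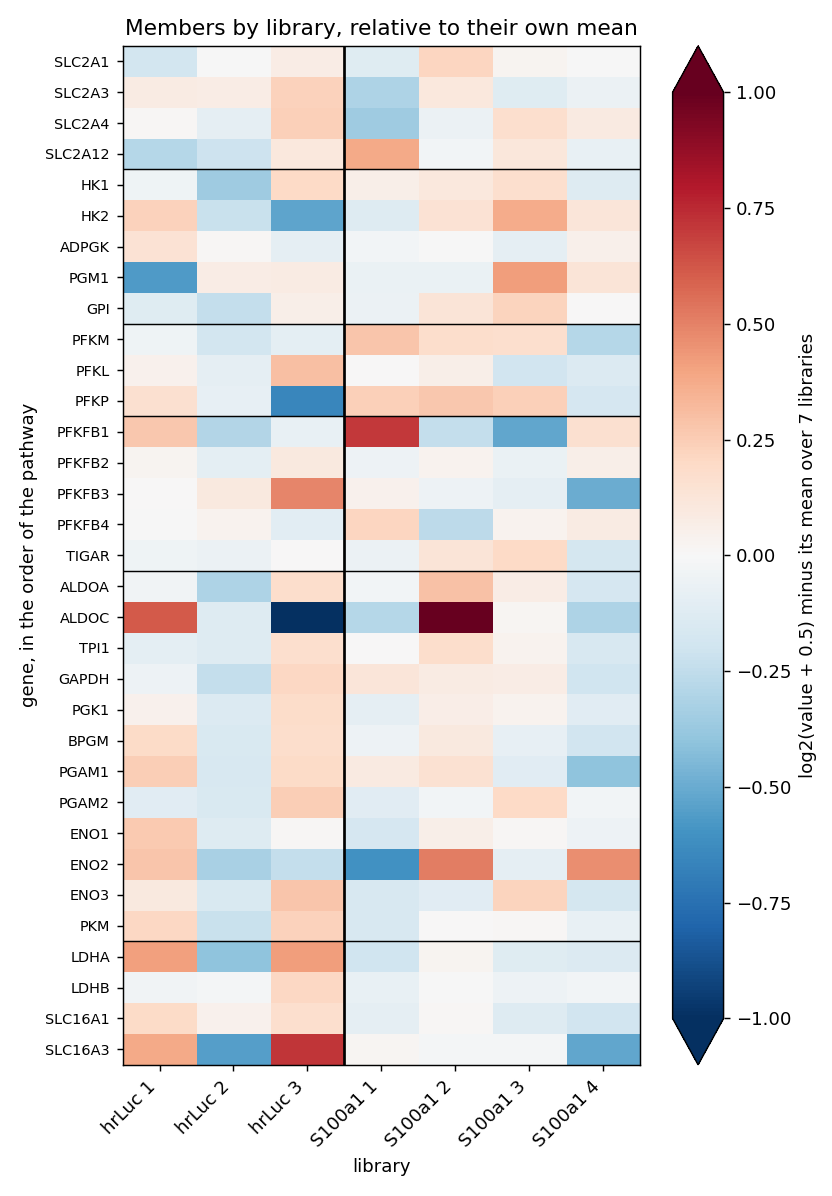
Each row is a member, in the order of the pathway, and each column a library, with the 3 hrLuc libraries left of the vertical line and the 4 S100a1 libraries right of it. Colour gives log2(value + 0.5) minus its mean over the 7 libraries, and horizontal lines separate the roles. hrLuc 2 is below the mean for 27 of 33 members and hrLuc 3 above it for 25, while SLC16A1 is the member whose 3 hrLuc values all exceed its S100a1 values.

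All 4 member genes of the lactate branch had a negative log2 difference, with a median of -0.24, and none passed the adjusted threshold. Of all genes tested, 43.5% had a positive difference. SLC16A1 (MCT1), the carrier that moves lactate and protons in or out of heart muscle cells, lies on chromosome 4 from 107510920 to 107547609 (Sscrofa11.1). It had 9275, 8402 and 9149 normalized counts in hrLuc and 7645, 8188, 7453 and 7136 in S100a1. Every hrLuc library was above every S100a1 library, and SLC16A1 was the 1 member of 33 whose groups did not overlap, where 9.27% of all genes tested did not (5.31% lower and 3.96% higher in S100a1). The group means were 8942 ± 472 (SD, n = 3) and 7605 ± 442 (SD, n = 4), and the log2 difference was -0.23 ± 0.07, with an unadjusted p of 0.0103 and an adjusted p of 0.535 in limma. The exact two-sided permutation test of its 7 values gave p = 0.0571, where 0.0286 is the smallest p that the 35 splits allow. Among the members this test was run on SLC16A1 because its groups did not overlap. A small p was thus set beforehand, and it adds no support. The 3 distinct transcript rows of SLC16A1 gave -0.29 to -0.23. SLC16A1 overlaps LRIG2, a membrane protein gene, whose log2 difference was 0.14, of the opposite sign. BSG, basigin, which escorts SLC16A1 to the cell surface, had a log2 difference of -0.20 ± 0.11 (adjusted p = 0.634, limma). Its counts were 15214, 12316 and 13894 in hrLuc and 10506, 12770, 13265 and 11455 in S100a1. SLC16A7, of the same gene family as SLC16A1 and named after its values were seen, went the other way. It was at 0.21 ± 0.15 (adjusted p = 0.704, limma), with 15557 to 24381 in hrLuc and 19149 to 23556 in S100a1.

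The other lactate carrier among the members and the 2 lactate dehydrogenase genes overlapped between the groups. SLC16A3 (MCT4), a carrier suited to lactate export, had 272, 142 and 344 normalized counts in hrLuc and 212, 206, 206 and 146 in S100a1, a log2 difference of -0.32 ± 0.28 (adjusted p = 0.761, limma) that moved to -0.68 with hrLuc replicate 2 left out and to -0.048 with replicate 3 of hrLuc left out. LDHA had 1254, 713 and 1259 in hrLuc and 822, 960, 864 and 858 in S100a1, a log2 difference of -0.25 ± 0.19 (adjusted p = 0.722, limma). In both genes hrLuc replicates 1 and 3 were the 2 highest libraries and hrLuc replicate 2 was the lowest. Without hrLuc replicate 2 the log2 difference of LDHA was -0.52, with the smallest adjusted p among the members in that fit (0.218, limma). The summed normalized count of the 6 markers of T and natural killer cells was likewise highest in hrLuc replicates 1 and 3, at 569 and 439. It was 276 in hrLuc replicate 2 and 257 to 314 in S100a1. The sum of 5 red cell markers was also highest in those 2 libraries, at 350 and 283. That sum was 117 in hrLuc replicate 2 and 87.4 to 258 in S100a1. Both sets were picked from several marker lists after the values were seen. All 6 T and natural killer cell markers were detected. The part of either set in the values of LDHA and SLC16A3 was not tested. In bulk tissue, fewer cells of a type and less RNA per cell cannot be told apart.

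LDHB stands in the table at 2 places. The row with the highest mean belongs to a RefSeq entry on chromosome 2 from 12988754 to 12990033, which lies over LOC407246, an entry annotated as a pseudogene, from the same start. The other entry lies on chromosome 5 from 51810932 to 51831218. The chromosome 2 row had 30533, 30948 and 36109 normalized counts in hrLuc and 29742, 31247, 30281 and 30699 in S100a1, a log2 difference of -0.09 ± 0.09 (adjusted p = 0.785, limma). The chromosome 5 rows, identical to each other, had 24276, 25887 and 26998 in hrLuc and 24326, 23185, 22831 and 25112 in S100a1, a log2 difference of -0.11 ± 0.08 (adjusted p = 0.711, limma). The groups overlapped at both places. The sources used here do not say how reads matching both entries were counted, so these values can hold the same reads.

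**Figure D3:**
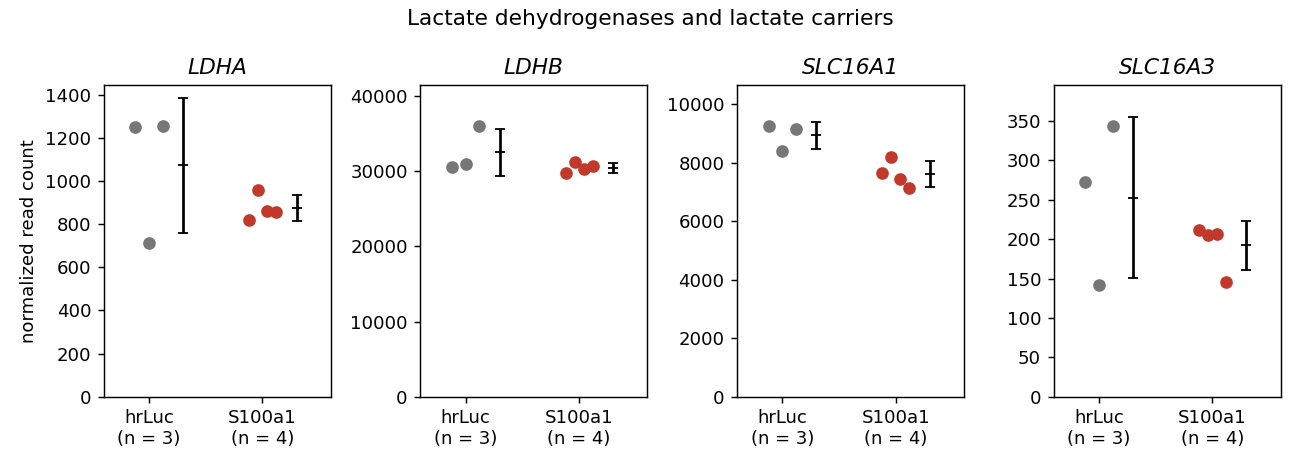
Normalized read count (y axis, from 0, with its own range in each panel) of LDHA, LDHB, SLC16A1 and SLC16A3 in the 3 hrLuc (grey) and 4 S100a1 (red) libraries. LDHB is shown by its chromosome 2 row. Points are libraries and the bar beside them is the mean ± SD; the points of SLC16A1 are apart between the groups, whereas those of LDHA and SLC16A3 span a wide range in hrLuc.

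Isozyme balance was compared as the log2 ratio of 2 members within a library, which does not depend on how the libraries were scaled. Transcript lengths were not used here, so a ratio is compared between libraries and not read as relative amounts of the 2 genes. Over 10 ratios, the differences between the groups ran from -0.16 to 0.34, the groups overlapped in all 10, and 0 had an adjusted p under 0.05 (exact two-sided permutation tests over 35 splits, Benjamini-Hochberg over the 10 ratios, smallest unadjusted p = 0.114 and every adjusted p = 0.83). With 10 ratios, even the smallest exact p of 0.0286 could pass the adjusted threshold only if it were shared by several ratios. The smallest p was that of PFKM over PFKL, the muscle over the liver type of phosphofructokinase. That log2 ratio was 3.59, 3.58 and 3.28 in hrLuc and 3.95, 3.79, 4.04 and 3.53 in S100a1, with replicate 4 the 1 S100a1 library within the hrLuc range. PFKFB2 over PFKFB3 was 2.89, 2.67 and 2.48 in hrLuc and 2.77, 2.95, 2.88 and 3.41 in S100a1, a difference of 0.33 (exact p = 0.171). SLC2A4 over SLC2A1 averaged 2.13 ± 0.15 in hrLuc (SD, n = 3) against 1.97 ± 0.21 in S100a1 (SD, n = 4; exact p = 0.286). LDHB over LDHA ran from 4.60 to 5.44 in hrLuc and from 5.02 to 5.18 in S100a1 (exact p = 0.486), so all S100a1 libraries fell within the hrLuc range. The LDHB values in this ratio were those of the chromosome 2 row. HK2 over HK1 was -4.62 ± 0.55 in hrLuc (SD, n = 3) and -4.44 ± 0.20 in S100a1 (SD, n = 4; exact p = 0.657).

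**Figure D4:**
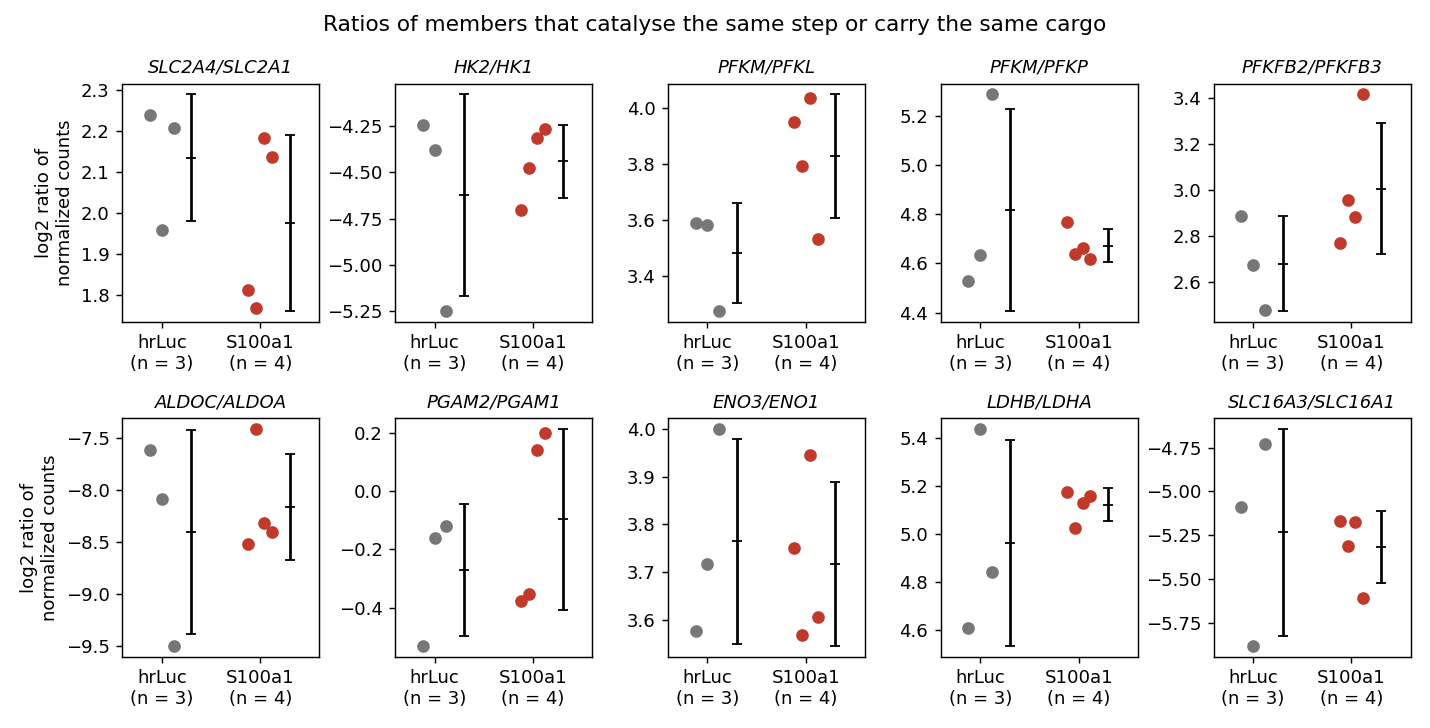
Log2 ratio of normalized counts (y axis, with its own range in each panel) for 10 pairs of members in the 3 hrLuc (grey) and 4 S100a1 (red) libraries. LDHB enters with its chromosome 2 row. Points are libraries and the bar beside them is the mean ± SD; in every panel the groups overlap, and PFKM/PFKL shows the largest difference, 0.34.

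Genes around the pathway were read from 4 lists. Among other transporters, isozymes and lactate partners, 23 of 28 were tested, 8 with a positive and 15 with a negative log2 difference, and none passed in limma, edgeR or DESeq2, with 1 at an unadjusted p under 0.05 in limma, where 8.26% of all genes tested were. The smallest p were those of MINPP1, a phosphatase that can also act on 2,3-bisphosphoglycerate (0.21 ± 0.08, adjusted p = 0.557, limma), and BSG, given above. Among the branches into the pentose phosphate, polyol and hexosamine pathways, 17 of 17 were tested, 8 positive and 9 negative, and none passed in these 3 tools, with 1 at an unadjusted p under 0.05 in limma. OGT, which attaches the end product of the hexosamine pathway to proteins, was at 0.16 ± 0.06 and GNPNAT1, an enzyme of that pathway, at -0.15 ± 0.08 (adjusted p = 0.574 and 0.636, limma).

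Among regulators of glycolytic genes 21 of 21 were tested, 6 positive and 15 negative. None passed in limma, with 3 at an unadjusted p under 0.05, where 8.26% of all genes tested were. None passed in edgeR, with 5 at an unadjusted p under 0.05 and no share computed. DESeq2, by contrast, called 1, ESRRG, where it called 0.568% of all genes. ESRRG, an orphan nuclear receptor of oxidative muscle, had a log2 difference of 0.66 ± 0.16, with 8422 to 11521 normalized counts in hrLuc and 12316 to 18015 in S100a1. Its adjusted p was 0.467 in limma, 0.488 in edgeR and 0.0151 in DESeq2, and 0.0113 in the authors' deposited table, so that its call depended on the tool. MYC, a transcription factor that drives glycolytic genes in growing cells, was at 0.55 ± 0.15 (adjusted p = 0.515, limma), with 169 to 237 in hrLuc and 245 to 333 in S100a1. The groups did not overlap in 3 of 21 genes, ESRRG, MYC and MEF2A, the last named after its values were seen, where 9.27% of all genes tested did not overlap. The third gene at an unadjusted p under 0.05 in limma, PPARGC1A, was named after its values were seen and was at 0.31 ± 0.13. HIF1A, the oxygen-regulated factor for glycolytic genes, also named after its values were seen, had 2421 to 3062 in hrLuc and 2340 to 2782 in S100a1, a log2 difference of -0.14 ± 0.10.

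Among genes of insulin and energy signalling 20 of 20 were tested, 10 positive and 10 negative. None passed in limma (4 at an unadjusted p under 0.05, where 8.26% of all genes tested were), edgeR (4) or DESeq2 (5), and the smallest adjusted p in the authors' deposited table was 0.0668, for AKT1. AKT1, a kinase of the insulin pathway, was at -0.28 ± 0.07 (adjusted p = 0.514, limma), with 3642 to 4061 normalized counts in hrLuc and 2937 to 3400 in S100a1. INSR, the insulin receptor, was at 0.36 ± 0.11 (adjusted p = 0.530, limma), with 7580 to 9451 in hrLuc and 9937 to 12540 in S100a1. The groups did not overlap in 3 of 20 genes, AKT1, INSR and IRS2, beside the 9.27% of all genes tested. The other 2 at an unadjusted p under 0.05 in limma, named after their values were seen, were the receptor substrates IRS1 (0.36 ± 0.13) and IRS2 (0.27 ± 0.09). These 4 lists and the members were chosen by knowledge of the pathway, but with earlier results of these data known. The counts describe them without a test of the list.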

How the data were processed

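Total RNA of 7 hearts was sequenced after ribosomal RNA depletion, per the labels' protocols. The authors deposited 1 table of 63562 transcript rows. The authors deposited per-library values that are a signal, namely read counts scaled by a size factor. Within 0.01 read, 100% of them were whole multiples of what 1 read is worth, and reads were recovered. The deposited log2 column, the deposited ratio (fold) column and the deposited p-value column give the authors' own comparison, whose adjustment the file headers do not name. Per the submitters' processing notes the build was Sscrofa11.1, with R 4.1.2, FastQC 0.11.8 and DESeq2 1.33.1 named without a role. Aligner, counting program and use of strand are not given in the sources used. All 63562 rows matched a RefSeq gene of that build. Of the members, 13 overlap another gene.

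limma 3.58.1 (R 4.3.3, trend, two-sided, 5 residual degrees of freedom, Benjamini-Hochberg over 15661 genes) was fitted to log2(value + 0.5) of genes at 10 normalized counts or more in 3 or more libraries, without covariates. edgeR 4.0.16 and DESeq2 1.42.0 were run on the recovered reads. All 3 were also run on simulated data, but the outcome is not given here and nothing above rests on it. Nothing but the titles says that replicates are separate animals. Named genes are the 33 members, S100A1 and, in each surrounding list, the 2 genes with the smallest p unless some pass; any further gene was named after its values were seen. The members and lists were chosen with earlier results of these data known.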

Additional observations from a re-analysis of the deposited data

Results flagged for a closer look

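In 5 of 44 sets of 4 S100a1 values examined, 1 library stood far from the other 3. Chance flags about 1 set in 20. The sets come from the same 4 libraries and are not independent, so the count cannot be weighed against that rate. S100a1 replicate 4 was low for PFKP (731 normalized counts, against 970 to 992 in the other 3), for GAPDH (112932, against 136541 to 141312) and for SLC16A3 (146, against 206 to 212). S100a1 replicate 2 was high for ALDOC (303, against 111 to 139). S100a1 replicate 3 was high for ENO3 (34990, against 26460 to 27752).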

How the results depend on the processing

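The count of members past the threshold was 0 under every alternative run: quantile normalization, median centring, pseudocounts of 0.1 and 1, no filter, a filter of 50 (which removed PFKFB1 and ENO2), the middle transcript row, edgeR, DESeq2, a threshold of 0.10 and each library left out. The median difference of the members ran from -0.059 to 0.059 over these. The count of isozyme ratios past the threshold was 0 with the other pseudocounts and the middle row; with a library left out no ratio could pass, so those counts say nothing. The labels give no pairing by replicate number. Same-numbered libraries had correlations of -0.022, -0.075 and 0.082 between their deviations, which with 3 hrLuc libraries cannot exclude a pairing. With the replicate number as a block 0 members and 0 genes in all passed, with a member median of 0.016. S100a1 replicate 4 has no partner there, so the differences are those of the fit without that library.

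Several directions changed with the processing or with the libraries, mostly of small differences but also that of ALDOC. With quantile normalization ADPGK was at 0.0040, TPI1 at -0.019 and PGAM2 at -0.0031; with median centring ADPGK was at 0.011 and PFKFB2 at 0.029; PFKFB2 was at 0.0029 in edgeR and 0.0012 in DESeq2. With each library left out, these differences crossed 0, and the cause was not tested: ADPGK (-0.092 to 0.025), ALDOA (-0.027 to 0.22), ALDOC (-0.096 to 0.74), ENO1 (-0.17 to 0.023), GAPDH (-0.056 to 0.16), HK1 (-0.029 to 0.25), PFKFB1 (-0.16 to 0.24), PFKFB2 (-0.073 to 0.026), PFKFB4 (-0.027 to 0.13), PGAM2 (-0.059 to 0.14), PGK1 (-0.14 to 0.023), SLC2A1 (-0.0061 to 0.12), SLC2A4 (-0.17 to 0.011), TIGAR (-0.0021 to 0.12) and TPI1 (-0.019 to 0.13). So did the log2 ratio differences of ALDOC/ALDOA (-0.31 to 0.63), ENO3/ENO1 (-0.14 to 0.071), HK2/HK1 (-0.13 to 0.38), LDHB/LDHA (-0.018 to 0.40), PFKM/PFKP (-0.29 to 0.090) and SLC16A3/SLC16A1 (-0.41 to 0.17). SLC16A1 kept its sign in every setting, between -0.28 and -0.19, with adjusted p from 0.185 (DESeq2) to 0.926 (limma without hrLuc replicate 1).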

Other observations

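Some genes of glucose synthesis and of other sugar steps, from the list of other transporters, isozymes and lactate partners, had few reads. PCK1, the cytosolic enzyme that starts glucose synthesis in liver and kidney, had at most 2.62 normalized counts in 5 libraries but 22.9 in S100a1 replicate 1 and 18.9 in S100a1 replicate 2. PCK1 did not reach the level for testing, nor did FBP2, the muscle fructose bisphosphatase (0.00 to 3.76), PGK2, the testis phosphoglycerate kinase (0.00 to 5.56), or SLC2A5, the fructose carrier (1.09 to 4.71). SLC5A1, a sodium-coupled glucose carrier known mainly from gut, was among the tested genes of that list. It was read at 286 to 343, with a log2 difference of -0.08 ± 0.10. All 5 of these genes were picked out after their values were seen, and no sequence was used here to check which exons their reads lie in.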
